A study of Mus musculus with 8 samples.

Results

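The genes described here are 30 interferon genes and 7 genes of the Schlafen family, chosen by gene symbol with 1 probe per gene. Of these 37 genes, 34 were measured among the 19938 genes tested. The measured genes comprised 19 of 22 interferon effectors, all 8 interferon regulators and sensors, and all 7 Schlafen genes, which are described apart. Isg15 and Gbp2 were left out because their probe is annotated to a further gene, and for Ifi44 the annotation used here lists no probe.

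RNA from mouse hearts was measured on 8 Affymetrix Mouse Gene ST arrays in 4 groups of 2. The groups were MAFbx knockout (KO) hearts after myocardial infarction (KO MI), wild-type hearts after infarction (WT MI), KO hearts after a sham operation (KO sham) and wild-type hearts after a sham operation (WT sham). MAFbx, encoded by Fbxo32, is a muscle ubiquitin ligase. Infarction was made by tying off the left coronary artery for good, and RNA was taken 1 day after surgery by the titles of the infarcted arrays. The titles of the sham arrays name no day. The labels do not give the deleted part of Fbxo32, whether the knockout is confined to a cell type, the strain, age or sex of the mice, or which part of the heart was used. Nothing in them states that the pair of arrays in a group stands for different mice, so the p-values reflect array-to-array spread, which may be technical.

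Interferons are secreted proteins that cells make when sensors such as RIG-I, MDA5 or cGAS with STING find foreign or misplaced nucleic acid. Type I interferons act through the receptor chains IFNAR1 and IFNAR2, the kinases JAK1 and TYK2 and a complex that includes STAT2 and IRF9 and binds the interferon-stimulated response element in the promoters of antiviral genes. Type II interferon (interferon gamma) acts through the receptor chains IFNGR1 and IFNGR2, and many of its target genes carry the gamma-activated site. In the infarcted mouse heart, type I interferon signalling is known mainly from macrophages that take up DNA of dying cells and activate IRF3. Schlafen genes are a rodent-expanded family named for their effect on the proliferation of lymphocytes, and several of them respond to interferon or mark myeloid cells.

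Fbxo32 read log2 levels of 5.14 and 5.46 on the KO MI arrays and 8.35 and 8.21 on the WT MI arrays, and 4.68 and 5.17 on the KO sham arrays against 8.76 and 8.79 on the WT sham arrays, so every KO array lay below every WT array. Levels here are the authors' log2 values, in which the mean level of a gene had a 10th percentile of 3.045, a median of 5.798 and a 90th percentile of 8.979. The arrays WT MI replicate 2 and KO sham replicate 1 stood apart over all probes, with medians of 5.187 and 5.253 against 5.004 to 5.087 on the other arrays. Over the genes tested, their medians of 5.796 and 5.773 lay within the 5.749 to 5.808 of the other arrays. Their standard deviations over these genes were 2.214 and 2.244, against 2.267 to 2.347. Counts that rest on these 2 arrays are also given without both. Cardiomyocyte markers averaged 13.11 to 13.36 on every array and B cell markers 4.16 to 4.69.

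Infarction raised part of the interferon genes in both genotypes, among them the chemokine Cxcl10, the antiviral genes Oas3 and Oasl1 and the transcription factor Irf5, and lowered the chemokine Cxcl9. Among the 27 measured interferon genes, 11 rose and 1 fell in KO MI against KO sham hearts, and again 11 rose and 1 fell in WT MI against WT sham hearts (limma, adjusted p under 0.05 over all genes). Of all genes tested, 10.5% rose and 10.3% fell in KO, and 12.3% rose and 15.8% fell in WT. The genes were chosen with earlier results of these data known, so the shares are no test of the set. The median log2 difference of the 27 genes was 0.64 in KO and 0.69 in WT, beside 0.01 and 0.04 over all genes. Both MI arrays lay above both sham arrays for 19 of the 27 genes in KO and 15 of the 27 in WT, where 28.1% and 35.0% of all genes did so. With the difference averaged over the genotypes, 16 of the 27 interferon genes rose and 1 fell, beside 17.2% and 19.4% of all genes.

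**Figure D1:**
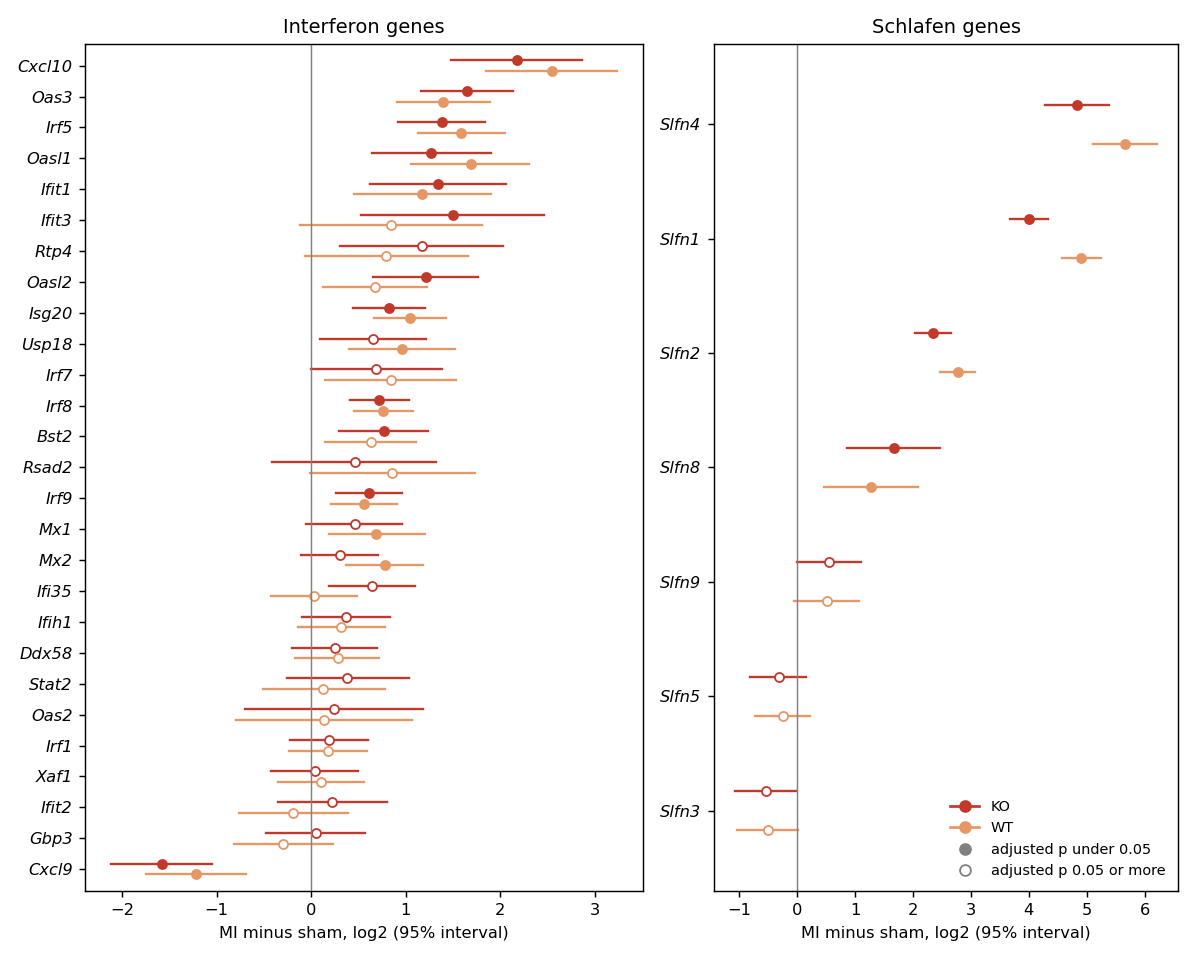
Difference between infarcted and sham hearts for each measured gene (log2, horizontal axis, with its 95% interval) in KO and WT, interferon genes on the left and Schlafen genes on the right. Cxcl10, Oas3 and Irf5 lie right of zero and Cxcl9 left of it in both genotypes, and Slfn4 and Slfn1 reach 4.83 and 4.01 in KO and 5.66 and 4.91 in WT on a wider scale.

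The counts leaned on single arrays. Leaving out any single array named next also lowered the count of all genes called in that genotype. Leaving out both arrays that stood apart raised that count in KO and lowered it in WT. Over interferon and Schlafen genes together, 15 rose and 1 fell in each genotype. In KO, 7 rose without KO MI replicate 1, 10 without KO sham replicate 2 and 11 without KO MI replicate 2. In WT, 9 rose without WT sham replicate 2, 9 without WT MI replicate 1 and 20 without WT MI replicate 2. Without both arrays that stood apart, 17 rose in KO and 22 in WT. Oas3, Cxcl9, Cxcl10, Irf5, Slfn1, Slfn2 and Slfn4 passed in both genotypes under each of the 17 alternative settings. A lowest or highest adjusted p given in the text is over all alternative settings of that comparison.

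The interferons themselves gave no called difference between infarcted and sham hearts of either genotype. Of 20 listed ligands 15 were measured, 0 passed in KO or in WT, and their mean log2 level was 4.03 and 4.12 on the KO MI arrays, 4.15 and 4.24 on the WT MI arrays, 4.19 and 3.97 on the KO sham arrays and 4.17 and 4.03 on the WT sham arrays. Ifnb1, the first type I interferon made by most cells, read 3.14 and 3.22 in KO MI, 3.15 and 3.22 in WT MI, 2.93 and 3.19 in KO sham and 3.06 and 3.18 in WT sham, near the low end of the array in every group. Ifng, the type II interferon, read 3.63 and 3.78 in KO MI, 3.92 and 4.09 in WT MI, 3.95 and 3.66 in KO sham and 3.72 and 3.58 in WT sham. These 2 ligands were singled out after their values had been seen. With the genotypes averaged, Ifna12 fell by 0.32 (SE 0.11, adjusted p = 0.0461), the only ligand to pass, at levels between 3.13 and 3.79.

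Of the 6 receptor genes, 1 rose and 1 fell in KO, beside 10.5% and 10.3% of all genes. In WT 1 rose and 2 fell, beside 12.3% and 15.8%. Ifnar1, a chain of the type I receptor, read 8.20 and 8.18 in KO MI against 7.53 and 7.65 in KO sham hearts, and 8.17 and 7.96 in WT MI against 7.67 and 7.37 in WT sham hearts. It rose by 0.60 in KO (adjusted p = 0.0146) and by 0.54 in WT (adjusted p = 0.0173), with no overlap of arrays. Il10rb, a chain shared by the receptors of interleukin-10 and lambda interferons, fell by 0.72 on the log2 scale in KO (adjusted p = 0.00461) and fell by 1.32 in WT (adjusted p = 0.000103). Ifngr2, a chain of the interferon gamma receptor, fell by 0.67 in WT (adjusted p = 0.00458), and its difference in KO was -0.21 (adjusted p = 0.338). Ifnar2, Ifngr1 and Ifnlr1 passed in neither genotype.

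Of the kinases and transcription factors downstream, Stat3, which carries interleukin-6 signals more than interferon signals, rose by 0.86 in KO (adjusted p = 0.00118) and by 1.05 in WT (adjusted p = 0.000237). Jak2, a kinase of the gamma receptor, rose by 0.67 in WT (adjusted p = 0.015), and its difference in KO was 0.31 (adjusted p = 0.248). Jak1, Tyk2, Irf2, Irf3 and Irf4 passed in neither. Of all genes, 10.5% rose and 10.3% fell in KO, and 12.3% rose and 15.8% fell in WT. Of 17 further nucleic acid sensing genes, 7 rose and 1 fell in KO and 8 rose and 2 fell in WT. Those with the smallest p included Myd88, the adaptor of most Toll-like receptors (1.3 in KO and 1.64 in WT), and Sting1, the adaptor of cytosolic DNA sensing (1.62 in KO and 1.75 in WT). Ikbke, a kinase that activates interferon regulatory factors, rose by 1.11 in KO and 1.01 in WT, and Zbp1, a sensor of Z-form nucleic acid, rose by 1.66 in KO and 1.5 in WT. Mavs, the adaptor of RIG-I on mitochondria, fell by 0.88 in WT, and its difference in KO was -0.25 (adjusted p = 0.314).

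Of 8 genes that restrain interferon signalling, 5 rose and 1 fell in KO, and 6 rose in WT, a count that includes Usp18. Of all genes, 10.5% rose and 10.3% fell in KO, and 12.3% rose in WT. Socs3, an inhibitor of JAK kinases induced by interleukin-6, read 7.97 and 8.47 in KO MI against 5.64 and 5.77 in KO sham hearts, and 8.53 and 8.65 in WT MI against 5.53 and 5.40 in WT sham hearts. It rose 5.73-fold in KO (adjusted p = 1.34e-05) and 8.74-fold in WT (adjusted p = 2.34e-06). Socs1, the main inhibitor of interferon gamma signalling, rose by 0.72 in KO and 0.61 in WT on the log2 scale. The phosphatases Ptpn6 and Ptpn2 and the ubiquitin ligase gene Trim30a rose in both genotypes, with differences of 0.89, 0.78 and 1.07 in KO and 0.90, 1.22 and 1.13 in WT. Pias1, a SUMO ligase gene, fell by 0.58 in KO (adjusted p = 0.0191), and its difference in WT was -0.40 (adjusted p = 0.0685). Ptpn11 passed in neither genotype.

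Among the 8 interferon regulators and sensors, the same 3 rose in each genotype, beside 10.5% of all genes in KO and 12.3% in WT. All 8 differences lay above zero in both genotypes, as did those of 10275 of the 19938 genes tested in KO and 10910 in WT. Irf5, which drives inflammatory cytokine genes in macrophages, read 7.24 and 7.23 in KO MI against 6.01 and 5.70 in KO sham hearts, and 7.76 and 7.08 in WT MI against 5.86 and 5.8 in WT sham hearts. All infarcted arrays lay above all sham arrays. It rose 2.60-fold in KO (log2 1.38, SE 0.21, adjusted p = 0.00139) and 3.02-fold in WT (log2 1.59, SE 0.21, adjusted p = 0.000375). Irf8, a factor of monocyte and dendritic cell development, read 7.98 and 7.67 in KO MI against 7.15 and 7.05 in KO sham hearts, and 7.89 and 7.77 in WT MI against 6.98 and 7.15 in WT sham hearts. It rose by 0.72 in KO (adjusted p = 0.00587) and 0.76 in WT (adjusted p = 0.00302). Irf9, the DNA-binding subunit of the type I complex, rose by 0.61 in KO (adjusted p = 0.0222) and 0.56 in WT (adjusted p = 0.0245). Without KO MI replicate 1 Irf8 no longer passed in KO (adjusted p = 0.0598), and Irf9 was lost without KO sham replicate 2 or KO MI replicate 1 in KO and without WT sham replicate 2 or either WT MI array in WT.

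Irf7, which amplifies the type I response once it has begun, read 8.30 and 7.74 in KO MI against 7.17 and 7.48 in KO sham hearts, and 8.46 and 7.38 in WT MI against 7.13 and 7.03 in WT sham hearts. Its infarcted arrays lay above the sham arrays of their genotype, but its differences of 0.69 in KO (adjusted p = 0.155) and 0.84 in WT (adjusted p = 0.0697) did not pass. Irf7 passed in WT under 4 of the 17 alternative settings (lowest 0.00516), without WT MI replicate 2 among them, and in KO under 2, without either WT MI array (lowest 0.0393). Averaged over the genotypes it rose by 0.77 (SE 0.22, adjusted p = 0.0202). That call was lost without WT sham replicate 2, KO sham replicate 1 or KO MI replicate 1 (adjusted p over the alternatives 0.00129 to 0.0826). Irf1, the factor first induced by interferon gamma, differed by 0.19 in KO (adjusted p = 0.545) and 0.18 in WT (adjusted p = 0.501). A second, dimmer probe of Irf1 read 5.21 and 5.30 in KO MI, 5.18 and 5.32 in WT MI, 6.05 and 5.22 in KO sham and 5.72 and 5.05 in WT sham hearts, and its infarcted and sham arrays overlapped in both genotypes. The brighter probe, from which the differences come, read 6.84 and 6.70 in KO MI against 6.57 and 6.59 in KO sham hearts, without overlap, and 6.85 and 6.40 in WT MI against 6.65 and 6.23 in WT sham hearts, with overlap. Stat2, a subunit of the type I complex, and the RNA sensors Ddx58 (RIG-I) and Ifih1 (MDA5) had differences of 0.38, 0.25 and 0.37 in KO and 0.13, 0.28 and 0.32 in WT, with adjusted p between 0.272 and 0.775.

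Of the 19 measured effectors, 8 rose and 1 fell in each genotype, with medians of 0.65 in KO and 0.78 in WT. Over all genes the medians were 0.01 and 0.04, with 10.5% up and 10.3% down in KO and 12.3% up and 15.8% down in WT. In the oligoadenylate synthetase family, which activates RNase L on viral RNA, Oas3 read 6.16 and 6.03 in KO MI against 4.37 and 4.52 in KO sham hearts, and 6.34 and 5.55 in WT MI against 4.56 and 4.53 in WT sham hearts. The infarcted arrays lay at least 0.99 above the sham arrays, and Oas3 rose 3.14-fold in KO (adjusted p = 0.000723) and 2.64-fold in WT (adjusted p = 0.00112). Oasl1, a family member without synthetase activity that restrains Irf7 translation in the mouse, rose by 1.27 in KO (SE 0.28, adjusted p = 0.0106) and 1.69 in WT (SE 0.28, adjusted p = 0.0016). Its arrays read 7.03 and 6.99 in KO MI against 5.8 and 5.69 in KO sham hearts, and 7.87 and 6.80 in WT MI against 5.8 and 5.5 in WT sham hearts. The KO call of Oasl1 was lost without KO sham replicate 2 or either KO MI array (highest adjusted p 0.0663). Oas2, by contrast, read 6.95 and 6.55 in KO MI, 7.36 and 6.24 in WT MI, 7.15 and 5.87 in KO sham and 6.78 and 6.54 in WT sham hearts, with the groups overlapping, and passed in neither genotype, with differences of 0.24 in KO (adjusted p = 0.769) and 0.14 in WT (adjusted p = 0.842). Without both arrays that stood apart, WT MI replicate 2 and KO sham replicate 1, Oas2 rose by 0.88 in KO (adjusted p = 0.0216) and by 0.70 in WT (adjusted p = 0.0408).

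Ifit1, which binds viral RNA that lacks a host cap, read 7.68 and 7.09 in KO MI against 6.17 and 5.92 in KO sham hearts, and 8.01 and 7.0 in WT MI against 6.6 and 6.06 in WT sham hearts. It rose 2.53-fold in KO (adjusted p = 0.0159) and 2.26-fold in WT (adjusted p = 0.0218). The call was lost in KO without KO sham replicate 2 or KO MI replicate 1 (highest adjusted p 0.128) and in WT without WT sham replicate 2 or WT MI replicate 1 (highest 0.147). Its neighbour Ifit2 overlapped between the groups and had differences of 0.22 in KO and -0.19 in WT. Isg20, an exonuclease of viral RNA, read 7.45 and 7.80 in KO MI against 6.74 and 6.86 in KO sham hearts, and 8.13 and 7.74 in WT MI against 6.95 and 6.82 in WT sham hearts. It rose by 0.82 in KO (adjusted p = 0.00738, lost without KO MI replicate 2 at 0.0743) and 1.05 in WT (adjusted p = 0.00136).

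Another 6 effectors passed in 1 genotype only. Ifit3, the partner of Ifit1, read 8.79 and 8.14 in KO MI against 6.85 and 7.09 in KO sham hearts, and 8.71 and 7.07 in WT MI against 7.22 and 6.87 in WT sham hearts. It rose by 1.5 in KO (SE 0.43, adjusted p = 0.0352), and its WT difference was 0.84 (adjusted p = 0.182), with WT MI replicate 2 inside the range of the WT sham arrays. Oasl2 and Bst2 (tetherin, which holds budding virus at the cell surface) rose in KO by 1.21 (adjusted p = 0.00729) and 0.77 (adjusted p = 0.0302), and had WT differences of 0.68 (adjusted p = 0.0682) and 0.63 (adjusted p = 0.0523). The GTPases Mx1 and Mx2, which trap viral nucleocapsids, rose in WT by 0.69 (adjusted p = 0.0445) and 0.78 (adjusted p = 0.0103), and differed in KO by 0.46 (adjusted p = 0.201) and 0.30 (adjusted p = 0.306). Mx1 and Mx2 read 3.05 to 3.63 on the sham arrays, where the 10th percentile of genes lies at 3.045, and detection was not tested. Usp18, which removes ISG15 from proteins and blocks IFNAR2, rose in WT by 0.96 (adjusted p = 0.0172) and differed in KO by 0.65 (adjusted p = 0.0999).

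The difference between the KO and WT responses was itself tested for these 6 genes and did not pass for any, with values from -0.47 to 0.66 on the log2 scale (KO minus WT) and adjusted p from 0.662 to 0.921. Without WT MI replicate 2, Ifit3 rose in WT as well (lowest adjusted p 0.00397), and it lost its KO call without any 1 of the 4 KO arrays and with array weights (highest 0.212). Oasl2 and Bst2 lost theirs without KO sham replicate 2 or KO MI replicate 1 (highest 0.0629 and 0.152), and Bst2 also without KO MI replicate 2. In WT, Oasl2 passed under 9 of the 17 alternative settings (lowest 0.0113) and Bst2 under 7 (lowest 0.00204), without WT MI replicate 2 among them for both, so their place among the genes called in 1 genotype rests on the setting. Mx1, Mx2 and Usp18 lost theirs without WT sham replicate 2 or WT MI replicate 1 (highest 0.254, 0.064 and 0.112), and Mx1 also without WT sham replicate 1, after cyclic loess or median centring and with the WT groups fitted alone. Usp18 passed in KO under 2 of the 17 settings, without KO MI replicate 2 among them (lowest 0.0328).

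**Figure D2:**
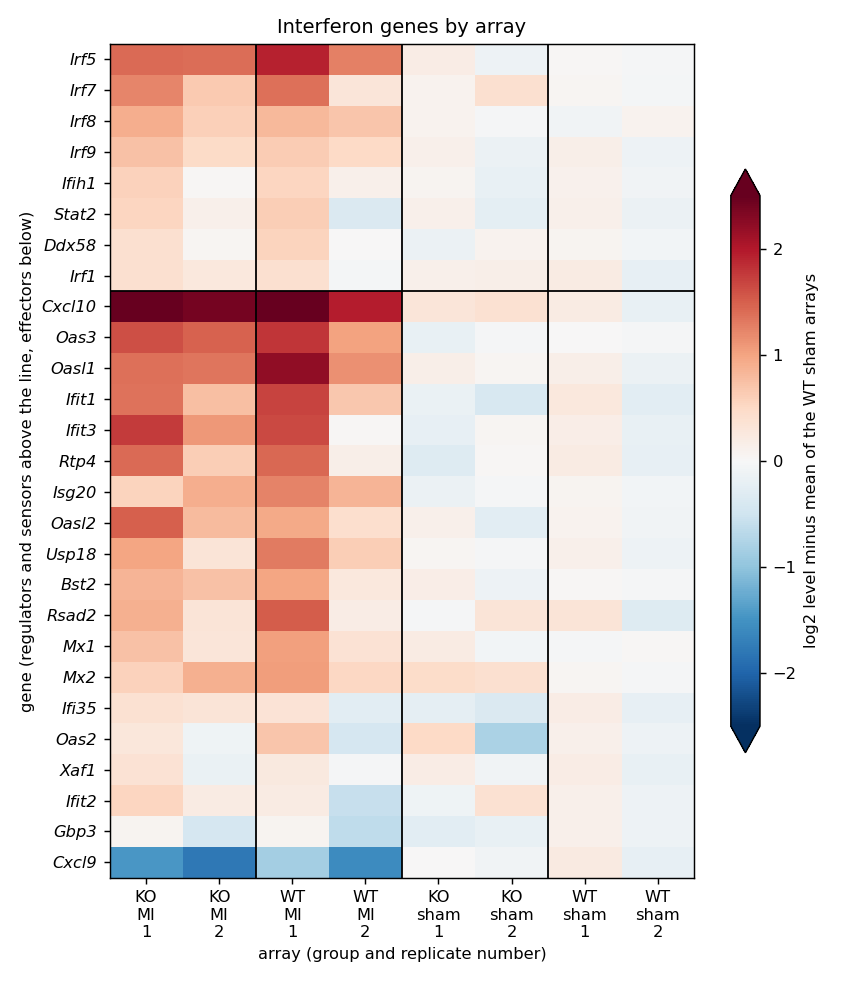
Log2 level of each of the 27 interferon genes on each array, minus the mean of the WT sham arrays (colour), with KO MI, WT MI, KO sham and WT sham arrays from left to right and regulators and sensors above the line. Cxcl10, Oas3, Oasl1 and Irf5 are raised on all 4 infarcted arrays and Cxcl9 is lowered on all 4, and the WT MI replicate 1 column is redder than the WT MI replicate 2 column.

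The effectors that passed in neither genotype were Ifit2, Oas2, Rsad2, Gbp3, Ifi35, Rtp4 and Xaf1. Rtp4, which in mouse controls the strength of interferon responses, read 7.47 and 6.68 in KO MI against 5.73 and 6.09 in KO sham hearts, and 7.5 and 6.20 in WT MI against 6.26 and 5.86 in WT sham hearts. Its WT arrays overlapped and its KO arrays did not, and it passed in WT under 2 of the 17 alternative settings, both without WT MI replicate 2 (lowest 0.0148), and in KO under 6, without either WT MI array among them (lowest 0.0152). Rtp4 rose by 0.98 with the genotypes averaged (adjusted p = 0.018), a call lost without WT sham replicate 2, KO sham replicate 1 or KO MI replicate 1 (highest 0.0748). Rsad2 (viperin, which makes a chain-terminating nucleotide) read 8.47 and 7.92 in KO MI against 7.56 and 7.91 in KO sham hearts, and 9.11 and 7.78 in WT MI against 7.91 and 7.26 in WT sham hearts. Its differences of 0.46 in KO and 0.86 in WT did not pass (adjusted p = 0.487 and 0.132), and without WT MI replicate 2 the WT difference did (adjusted p over the alternatives 0.0103 to 0.696). Ifi35 differed by 0.64 in KO (adjusted p = 0.0502) and 0.03 in WT (adjusted p = 0.92), and the KO difference passed under 9 of the 17 alternative settings, without either WT MI array among them (lowest adjusted p 0.0192). The GTPase Gbp3 differed by 0.05 in KO and -0.30 in WT, and Xaf1, an antagonist of a caspase inhibitor, by 0.04 in KO and 0.10 in WT.

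The chemokines Cxcl9 and Cxcl10, which share the receptor CXCR3 and lie next to each other on chromosome 5, moved in opposite directions. Cxcl10 read 6.88 and 6.63 in KO MI against 4.53 and 4.62 in KO sham hearts, and 7.37 and 6.20 in WT MI against 4.43 and 4.04 in WT sham hearts. Every infarcted array lay above every sham array. Cxcl10 rose 4.52-fold in KO (log2 2.18, SE 0.31, adjusted p = 0.00111) and 5.85-fold in WT (log2 2.55, SE 0.31, adjusted p = 0.000268). Cxcl9 read 6.63 and 6.29 in KO MI against 8.09 and 8.0 in KO sham hearts, and 7.23 and 6.50 in WT MI against 8.30 and 7.87 in WT sham hearts. Every infarcted array lay below every sham array, and Cxcl9 fell by 1.58 in KO (SE 0.24, adjusted p = 0.00143) and fell by 1.22 in WT (SE 0.24, adjusted p = 0.00384). In these bulk hearts, fewer cells that make a transcript and less of it per cell cannot be told apart. Endothelial markers averaged 9.32 and 9.21 in KO MI against 9.55 and 9.78 in KO sham hearts, and 9.50 and 9.28 in WT MI against 9.71 and 9.72 in WT sham hearts. Of the 7 endothelial markers 3 fell in KO and 2 in WT, beside 10.3% and 15.8% of all genes. Of the 7 fibroblast markers 1 fell in KO and 3 in WT, and of the 8 cardiomyocyte markers 1 in KO and 3 in WT. The part of any of these cells in the fall of Cxcl9 was not tested.

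Cxcl9 is known in the mouse as a gene of interferon gamma, and Cxcl10 as a gene of type I interferon, interferon gamma and NF-kB. Promoter sequences are shown for this pair and for other genes on which the results turn. They come from RefSeq on build GRCm38.p6, run 5′ to 3′ on the strand of the gene, and belong to windows of 250 bases before and 50 bases from the annotated start. The window of Cxcl10, at chr5:92348840-92349139 on the minus strand, holds in capitals first a match to the interferon-stimulated response element and then a match to an NF-kB site. The stretch of Cxcl9, at chr5:92328093-92328141 on the minus strand, holds in capitals the NF-kB match, and its window held no response element match.
Cxcl10: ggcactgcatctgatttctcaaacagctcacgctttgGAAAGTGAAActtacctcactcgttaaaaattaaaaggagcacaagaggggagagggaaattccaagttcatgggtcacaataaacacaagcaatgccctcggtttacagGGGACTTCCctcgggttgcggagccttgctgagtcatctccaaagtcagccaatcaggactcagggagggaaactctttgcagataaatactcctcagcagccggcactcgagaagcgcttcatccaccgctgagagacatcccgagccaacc
Cxcl9: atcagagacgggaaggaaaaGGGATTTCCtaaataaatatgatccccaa

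The response element was searched on both strands as GAAA, any 2 bases and GAAA again, the gamma-activated site as TTCNNNGAA and the NF-kB site as GGGANTTCC. Longer or looser forms of these sites were not searched, so the matches may miss some sites. A window was at hand for 32 of the 37 genes, and not for Mx1, Mx2, Oas2, Rtp4 and Usp18. The response element matched in 15 of the 32 windows, beside 3.99% of the 27025 genes with a window. The gamma-activated site matched in 6 of the 32 (Ifit2, Isg20, Ifi35, Bst2, Irf1 and Irf8), beside 9.55% of all genes, and the NF-kB site in 3 (Cxcl9, Cxcl10 and Slfn2), beside 1.92%. Matches may overlap, as in Bst2. The 4 stretches that follow, from effectors that rose in KO, show the response element in capitals, Ifit1 at chr19:34640765-34640833 on the plus strand, Ifit3 at chr19:34583353-34583436 on the plus strand, Oas3 at chr5:120777705-120777754 on the minus strand and Bst2 at chr8:71537567-71537622 on the minus strand.
Ifit1: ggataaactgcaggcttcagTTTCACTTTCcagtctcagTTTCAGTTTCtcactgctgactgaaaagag
Ifit3: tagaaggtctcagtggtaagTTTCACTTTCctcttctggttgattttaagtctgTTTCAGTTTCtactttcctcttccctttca
Oas3: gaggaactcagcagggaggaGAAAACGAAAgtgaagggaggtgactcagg
Bst2: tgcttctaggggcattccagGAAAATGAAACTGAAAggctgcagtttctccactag

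Genes with and without a response element match rose. Of the 13 measured genes with a response element match, 6 rose in KO and 4 in WT. Of the 16 measured genes whose window held no match, 9 rose and 1 fell in KO and 8 rose and 1 fell in WT. Among all genes tested, 10.5% rose and 10.3% fell in KO, and 12.3% rose and 15.8% fell in WT. Rsad2, Gbp3, Stat2, Ddx58, Ifih1, Slfn5 and Slfn9 held a match and passed in neither genotype, and Isg20, Oasl1, Irf5, Irf8, Irf9, Slfn1, Slfn2 and Slfn4 held none in this window and rose in both.

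**Figure D3:**
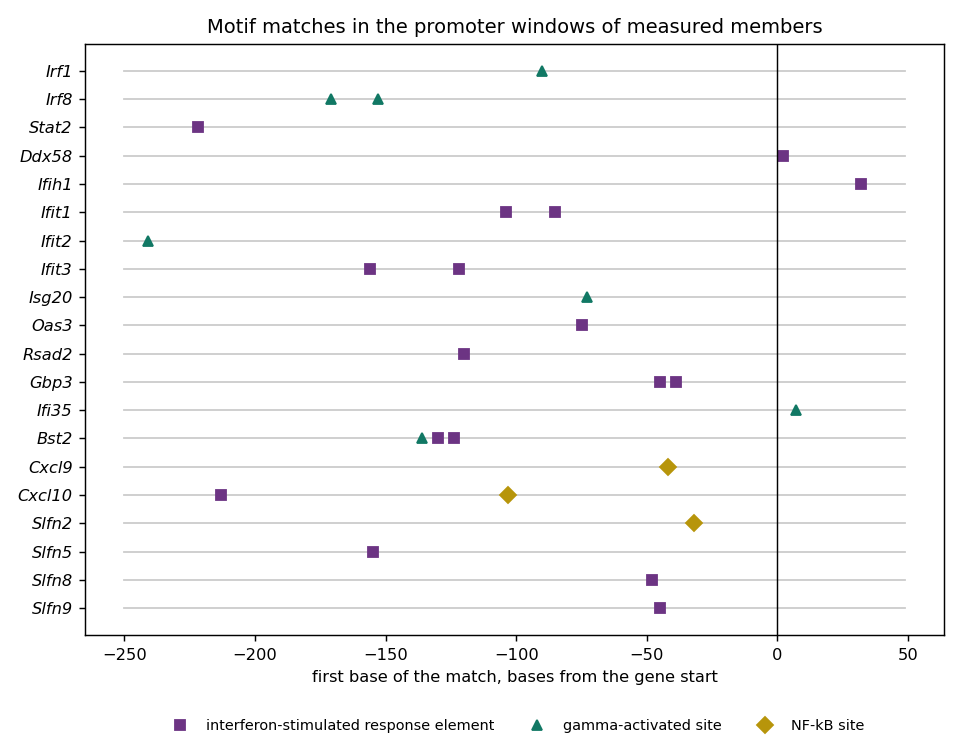
Position of motif matches in the promoter windows of the measured genes that hold any (first base of the match, in bases from the annotated gene start, the vertical line), with squares for the interferon-stimulated response element, triangles for the gamma-activated site and diamonds for the NF-kB site. Ifit1, Ifit3, Gbp3 and Bst2 each show 2 response element matches, and Cxcl10 shows a response element upstream of its NF-kB match.

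The largest rises among the 34 genes were those of Slfn4, Slfn1 and Slfn2. Of 7 measured Schlafen genes, 4 rose in KO and the same 4 in WT, beside 10.5% and 12.3% of all genes. Their medians were 1.67 in KO and 1.27 in WT. Slfn4 read 9.45 and 9.55 in KO MI against 4.58 and 4.77 in KO sham hearts, and 10.76 and 9.84 in WT MI against 4.71 and 4.56 in WT sham hearts. It rose 28.4-fold in KO (log2 4.83, SE 0.25, adjusted p = 3.38e-06) and 50.7-fold in WT (log2 5.66, SE 0.25, adjusted p = 8.7e-07). Slfn4 belongs with Slfn3 to the intermediate-length Schlafens and in the mouse is known from immature myeloid cells and interferon-treated macrophages. Slfn1 read 8.03 and 8.26 in KO MI against 4.14 and 4.14 in KO sham hearts, and 8.98 and 9.28 in WT MI against 4.13 and 4.31 in WT sham hearts. It rose 16.1-fold in KO (log2 4.01, SE 0.15, adjusted p = 8.77e-07) and 30.1-fold in WT (log2 4.91, SE 0.15, adjusted p = 1.2e-07). Slfn1 is a short Schlafen that slows the growth of mouse T cells when overexpressed.

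Slfn2, the other short Schlafen, which keeps mouse T cells and monocytes quiescent, read 8.12 and 7.84 in KO MI against 5.57 and 5.71 in KO sham hearts, and 8.78 and 8.66 in WT MI against 5.90 and 6.0 in WT sham hearts. It rose 5.06-fold in KO (log2 2.34, SE 0.14, adjusted p = 7.46e-06) and 6.83-fold in WT (log2 2.77, SE 0.14, adjusted p = 1.51e-06). For Slfn1, Slfn2 and Slfn4 every infarcted array lay above every sham array by at least 1.84 on the log2 scale. Slfn8, a long Schlafen with a helicase-like domain, read 6.33 and 6.26 in KO MI against 4.50 and 4.76 in KO sham hearts, and 6.70 and 5.28 in WT MI against 4.90 and 4.54 in WT sham hearts. It rose by 1.67 in KO (SE 0.36, adjusted p = 0.00949) and 1.27 in WT (SE 0.36, adjusted p = 0.0251), and the WT arrays after infarction lay 1.43 apart. The KO call was lost without KO sham replicate 1 or either KO MI array (highest adjusted p 0.0618) and the WT call without either WT sham array or WT MI replicate 1 and with the WT groups fitted alone (highest 0.135).

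**Figure D4:**
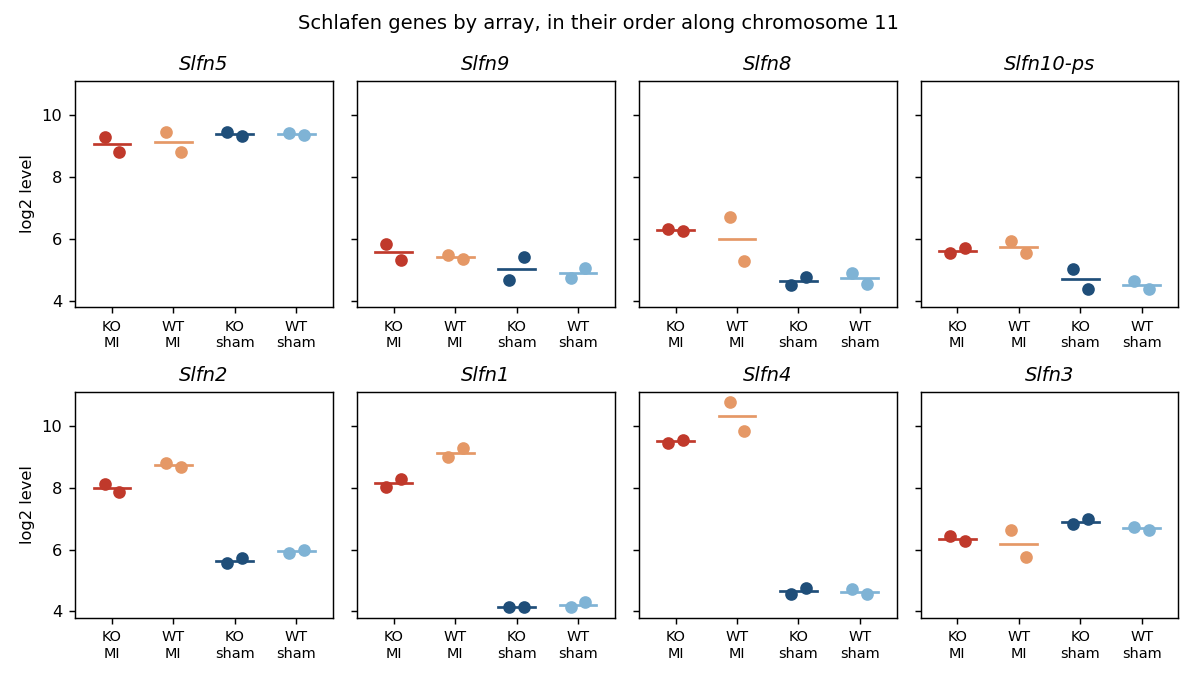
Log2 level of 8 Schlafen genes on each array (points, with the group mean as a line), in their order along chromosome 11, with KO MI, WT MI, KO sham and WT sham from left to right. Slfn2, Slfn1 and Slfn4 separate infarcted from sham hearts by at least 1.84, and in these 3 genes both KO MI arrays lie below both WT MI arrays.

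The remaining Schlafen genes had smaller differences. Slfn9, a long Schlafen, read 5.84 and 5.33 in KO MI against 4.66 and 5.41 in KO sham hearts, and 5.47 and 5.34 in WT MI against 4.73 and 5.07 in WT sham hearts. It rose by 0.53 with the genotypes averaged (adjusted p = 0.041), but in neither genotype alone, where it passed under 1 of the 17 settings each (lowest 0.027 in KO, without KO sham replicate 2, and 0.0471 in WT, with the WT groups fitted alone). Slfn3 read 6.43 and 6.28 in KO MI against 6.82 and 6.97 in KO sham hearts, and 6.62 and 5.75 in WT MI against 6.73 and 6.64 in WT sham hearts. Its infarcted arrays lay below the sham arrays of their genotype, and it fell by 0.52 with the genotypes averaged (adjusted p = 0.0334). The averaged calls of Slfn9 and Slfn3 were each lost without single arrays (adjusted p over the alternatives 0.00653 to 0.148 for Slfn9 and 0.000716 to 0.106 for Slfn3). For Slfn9 these were WT sham replicate 1, KO sham replicate 1, KO MI replicate 1 and either WT MI array, and a total of 9 of the 16 settings of this comparison ended the call, cyclic loess and median centring included. For Slfn3 they were each sham array and each KO MI array, and Slfn3 fell in WT without WT MI replicate 1 (lowest 0.00358) and in KO under 4 of the 17 settings, without either WT MI array among them (lowest 0.0174). Slfn5, the long Schlafen also present in humans, read 9.30 and 8.81 in KO MI, 9.44 and 8.81 in WT MI, 9.44 and 9.33 in KO sham and 9.40 and 9.35 in WT sham hearts, and differed by -0.32 in KO (adjusted p = 0.361) and -0.25 in WT (adjusted p = 0.437).

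The genes that rose lie side by side. RefSeq orders the cluster on chromosome 11 as Slfn5, Slfn9, Slfn8, Slfn10-ps, Slfn2, Slfn1, Slfn4, Slfn3 and Slfn14, and the 5 that rose in both genotypes are the run from Slfn8 to Slfn4. Slfn10-ps, a pseudogene outside the 37 genes, read 5.54 and 5.69 in KO MI against 5.01 and 4.37 in KO sham hearts, and 5.94 and 5.55 in WT MI against 4.64 and 4.38 in WT sham hearts. It rose by 0.92 in KO (adjusted p = 0.0139) and 1.23 in WT (adjusted p = 0.00218). Slfnl1 passed in neither genotype, and Slfn14 is not analysed here. Schlafen genes are close copies of each other, above all Slfn8, Slfn9 and Slfn10-ps, and whether their probes read each other's transcripts was not tested.

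The long Schlafens Slfn5, Slfn8 and Slfn9 held a response element match, in capitals here, at chr11:82951927-82951976 on the plus strand, chr11:83020829-83020878 on the minus strand and chr11:82991846-82991895 on the minus strand. Of these 3 only Slfn8 rose in each genotype. Slfn2 held an NF-kB match at chr11:83065060-83065108 on the plus strand. The whole window of Slfn4, at chr11:83174936-83175235 on the plus strand, is shown because this gene rose most and held none of the 3 motifs, so no letters are in capitals.
Slfn5: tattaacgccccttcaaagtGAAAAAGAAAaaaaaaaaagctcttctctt
Slfn8: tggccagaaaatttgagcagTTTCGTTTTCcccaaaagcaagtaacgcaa
Slfn9: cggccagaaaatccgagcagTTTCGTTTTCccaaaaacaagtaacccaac
Slfn2: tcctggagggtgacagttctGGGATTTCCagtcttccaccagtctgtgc
Slfn4: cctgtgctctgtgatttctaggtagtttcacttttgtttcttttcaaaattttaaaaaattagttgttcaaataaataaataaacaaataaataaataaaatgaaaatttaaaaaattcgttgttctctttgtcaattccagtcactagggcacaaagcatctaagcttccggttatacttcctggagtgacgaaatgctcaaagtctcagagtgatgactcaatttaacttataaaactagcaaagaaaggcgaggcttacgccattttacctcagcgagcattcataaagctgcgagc

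Between genotypes, 0 of the 34 genes passed by limma. In KO MI against WT MI hearts, 0.0702% of all genes did, and at an unadjusted p under 0.05 it was 3 of the 34, all lower in KO, beside 11.7% of all genes. These 3 were Slfn1, Slfn2 and Slfn4, and they were also the only ones of the 34 whose KO MI arrays did not overlap the WT MI arrays, all below, where 20.2% of all genes lay below and 24.2% above. Slfn1 differed by -0.99 on the log2 scale (95% interval -1.32 to -0.66, adjusted p = 0.0622), with 8.03 and 8.26 in KO MI and 8.98 and 9.28 in WT MI hearts. Slfn2 differed by -0.74 (interval -1.05 to -0.43, adjusted p = 0.106) and Slfn4 by -0.79 (interval -1.35 to -0.24, adjusted p = 0.274). Slfn1 passed when the prior followed intensity, when the lowest 33.33% of genes were removed, after cyclic loess and with array weights, with adjusted p from 0.0316 to 0.463 over all alternatives.

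In KO sham against WT sham hearts, where 0.0301% of all genes passed, the lowest adjusted p among the 34 genes was 0.943, for Mx2, and 1 gene lay higher and 1 lower at an unadjusted p under 0.05, beside 5.10% of all genes. Slfn1 and Slfn4 differed by -0.08 and 0.04 in sham hearts, and Slfn2 by -0.31 (adjusted p = 0.976), with 5.57 and 5.71 in KO sham against 5.90 and 6.0 in WT sham hearts. The difference of the responses, KO minus WT, was -0.90 for Slfn1 (adjusted p = 0.41), -0.84 for Slfn4 (adjusted p = 0.604) and -0.43 for Slfn2 (adjusted p = 0.61). By limma 0 of the 34 genes and 0% of all genes passed for this difference, and 2 of the 34, Slfn1 and Slfn4, had an unadjusted p under 0.05, beside 8.21% of all genes. Averaged over conditions, 0 of the 34 passed for KO against WT, beside 0.100% of all genes, and the lowest adjusted p was 0.13, for Slfn2, with 2 genes lower at an unadjusted p under 0.05, beside 8.41% of all genes.

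The KO minus WT differences of the 27 interferon genes in infarcted hearts ran from -0.41 to 0.58, with a median of -0.01 beside 0.00 over all genes and adjusted p from 0.447 to 0.995, and for all 27 the arrays overlapped. The median of the 7 Schlafen genes was -0.07. The intervals were wide, for instance from -0.72 to 0.66 for Cxcl10 and from -0.39 to 1.54 for Ifit3. With 2 arrays a group, differences within these intervals remain possible.

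Neutrophil markers, like Slfn1, Slfn2 and Slfn4, read lower in KO MI than in WT MI hearts, though no such difference passed in the reported fit. The mean log2 level of 13 neutrophil markers was 6.02 and 6.23 in KO MI against 6.63 and 7.30 in WT MI hearts, and 4.0 and 3.94 in KO sham against 3.95 and 3.96 in WT sham hearts. All 13 had KO MI minus WT MI differences below zero, with a median of -0.95. For 11 of them the arrays did not overlap, beside 20.2% of all genes that lay below in this way, and 0 of the 13 passed. Within the WT MI group, Slfn1 read higher on replicate 2, as did the mean of these markers. Slfn4 and Slfn2 read higher on replicate 1. Slfn4 read 10.76 on replicate 1 and 9.84 on replicate 2 and Slfn2 8.78 and 8.66, where the neutrophil mean read 6.63 and 7.30. In infarcted against sham hearts, 7 of the 13 rose in KO and 10 in WT, beside 10.5% and 12.3% of all genes. Among the 13, S100a8, a calprotectin subunit, rose by 4.97 in KO and 6.20 in WT. Of 11 monocyte and macrophage markers, 8 rose in each genotype, and their mean level was 8.14 and 8.13 in KO MI, 8.59 and 8.16 in WT MI, 6.0 and 6.30 in KO sham and 6.18 and 6.06 in WT sham hearts. In KO MI against WT MI hearts the median of the 11 was -0.01, with 5 above zero and 6 below, and 1 passed, Chil3, which fell by 2.09 (adjusted p = 0.0248). Cx3cr1, a receptor of resident macrophages and patrolling monocytes, differed by 0.76 without overlap (adjusted p = 0.155). The part of these cells in the Schlafen levels was not tested.

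T and NK cell markers were low on every array. The mean level of 12 T and NK cell markers was 3.79 and 3.86 in KO MI, 3.91 and 4.09 in WT MI, 3.87 and 3.72 in KO sham and 3.73 and 3.81 in WT sham hearts, and 1 of them rose in each genotype (Prf1 in KO and Cd8a in WT). Among the 8 dendritic and plasmacytoid cell markers, 2 rose in KO and 1 in WT. Of all genes, 10.5% rose in KO and 12.3% in WT. Itgax, which macrophages also express, rose by 1.42 in KO and 1.58 in WT. Flt3, a growth factor receptor of dendritic cell precursors, rose by 0.68 in KO (adjusted p = 0.0116), with a WT difference of 0.32 (adjusted p = 0.149). Siglech and Ccr9, which mark the plasmacytoid cells that make most type I interferon, passed in neither genotype.

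The level of the interferon genes also differed between arrays of 1 group. On WT MI replicate 1, all 27 interferon genes read higher than on WT MI replicate 2, with a median difference of 0.70 (range 0.12 to 1.64), where 42.63% of all genes read higher and the median over all genes was -0.04. In KO MI hearts 25 of 27 read higher on replicate 1, with a median of 0.37, and in WT sham hearts 25 of 27, with a median of 0.25. In KO sham hearts it was 16 of 27, with a median of 0.09. The mean level of the 27 genes was 7.18 and 6.85 in KO MI, 7.37 and 6.61 in WT MI, 6.39 and 6.31 in KO sham and 6.47 and 6.23 in WT sham hearts, so the WT MI arrays lay further apart than the means of the infarcted groups.

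The gap on the WT MI arrays was not shared by neutrophil markers, of which 1 of 13 read higher on replicate 1, with a median of -0.52. Of the 11 monocyte and macrophage markers 9 read higher, with a median of 0.46, and of the 7 Schlafen genes 6, with a median of 0.63. Among 57 further interferon-stimulated genes outside the 37, 51 read higher on WT MI replicate 1, with a median of 0.43. WT MI replicate 2 is 1 of the arrays that stood apart, and these values describe the spread behind the WT counts. Whether same-numbered arrays of different groups belong together was not taken from the labels.

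**Figure D5:**
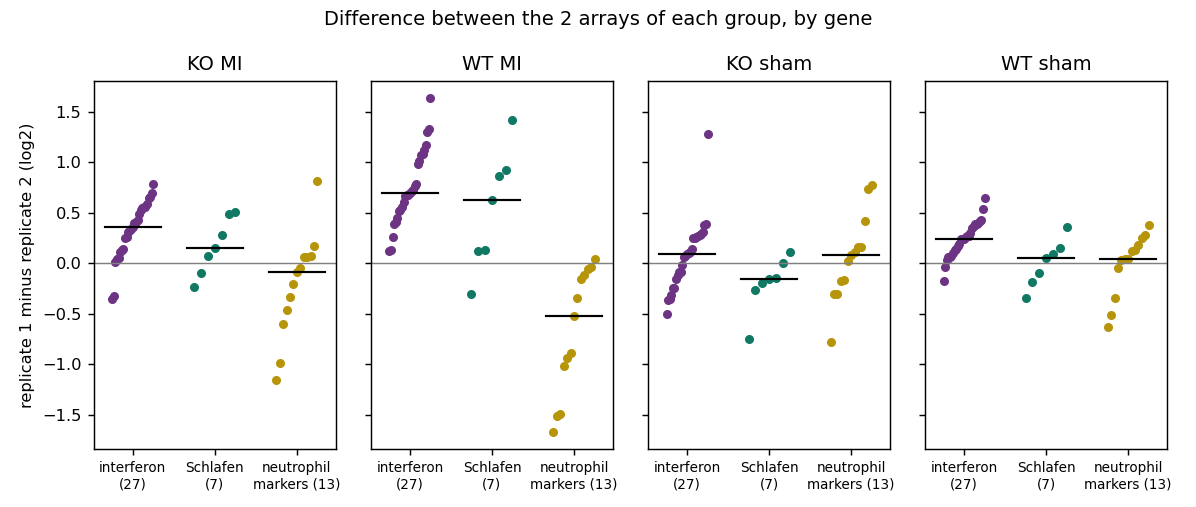
Log2 level on replicate 1 minus replicate 2 for each gene (points, with the median as a line) within KO MI, WT MI, KO sham and WT sham hearts, for interferon genes, Schlafen genes and neutrophil markers. In WT MI hearts all 27 interferon genes lie above zero and 12 of 13 neutrophil markers lie below it.

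Of the 57 further interferon-stimulated genes, 8 rose and 2 fell in KO, with a median of 0.18, and in WT 11 rose and 4 fell, with a median of 0.11. The shares that rose were 14.0% in KO and 19.3% in WT, beside 10.5% and 12.3% of all genes, and the genes named next are among those with the smallest p. Ifitm1, which hinders viral entry, read 8.14 and 8.51 in KO MI against 6.43 and 6.40 in KO sham hearts, and 8.78 and 8.93 in WT MI against 6.41 and 6.52 in WT sham hearts. It rose by 1.91 in KO (adjusted p = 3.06e-05) and 2.39 in WT (adjusted p = 5.13e-06). Ifi30, a lysosomal reductase of antigen-presenting cells, rose by 1.94 in KO and 2.15 in WT, and Ifitm3 by 0.88 in KO and 0.95 in WT. Ms4a4c rose by 2.48 in KO and 2.59 in WT. Ifi203, a DNA-binding protein of the mouse, fell by 1.0 in KO, and its difference in WT was -0.44 (adjusted p = 0.0952).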

How the data were processed

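The deposited values are log2 expression levels, for which the submitters' processing notes name RMA in Affymetrix Expression Console. The versions of both are details not given in the sources used here. RMA as commonly run makes the distributions of the arrays alike. Biotin-labelled cRNA was hybridised, per the labels' protocols. Of 35556 probes, the platform annotation paired 21789 with 1 gene, of which 21698 were matched by Entrez ID to RefSeq (GRCm38.p6) and 0 symbols changed. It paired 1621 with several genes, which were left out, and did not list 12146. The probe with the highest mean was kept for 999 genes with several, which left 19938 genes, with no filter on low values.

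All 8 arrays, grouped by the labels, entered 1 limma 3.58.1 fit in R 4.3.3 with 4 group means (4 residual and 5.571 prior degrees of freedom), two-sided, with Benjamini-Hochberg adjustment over all genes at 0.05. The fit gave 7 contrasts, named in the report. An exact permutation test of 2 arrays against 2 cannot give a p under 0.333, so precision is limited by the number of arrays. The code was tested on simulated data. The alternatives were an intensity trend, removal of the lowest 33.33% of genes, the mean of a gene's probes, median centring, cyclic loess, array weights, a block on the replicate number, the compared groups alone, and leaving out each array or both that stood apart.

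The members and lists were chosen with earlier results of these data known. All members, Fbxo32, all genes of lists of up to 10 and otherwise up to 4 called genes per list and contrast with the smallest p could be named. Plots used Python 3.11.15 and matplotlib 3.10.9.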

Additional observations from a re-analysis of the deposited data

How the results depend on the processing

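The 34 genes were recomputed in all 7 comparisons, and 79 results of single genes, from 4 of them, passed in the reported fit or under an alternative. Of the 1309 alternative values of those 79 results, 1171 kept their direction and side of the threshold, 66 no longer passed, 72 newly passed and 0 reversed. Leaving out 1 array gave 8 to 20 genes past the threshold for infarction in KO and 10 to 21 in WT, where the full set of arrays gave 16 in each, and 17 to 26 for infarction averaged over the genotypes, where it gave 23. The number left without WT sham replicate 2 was 10 in WT, and without KO MI replicate 1 it was 8 in KO. For KO against WT in infarcted hearts, 1 gene, Slfn1, passed in place of 0 with an intensity trend, with the lowest 33.33% of genes removed, after cyclic loess and with array weights. Over all genes that comparison gave between 2 and 63 genes across the settings, 14 in the reported fit. Where 1 array was left in a group, its variance was taken from the other groups. The count of all genes called also fell in WT without WT sham replicate 2 and in KO without KO MI replicate 1. The cause of these changes was not tested, apart from the fewer arrays or genes that each setting itself entails.

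Groups share the replicate numbers 1 and 2. With the replicate block the counts were 19 genes for infarction in KO, 18 in WT and 25 with the genotypes averaged, and 0 for each comparison of the genotypes and for the difference of the responses. Over all genes, deviations of same-numbered arrays from their group means correlated between -0.19 and 0.16, and the reported fit did not take the numbers as pairs. For the 27 interferon genes the median was higher on replicate 1 in every group, by 0.09 in KO sham to 0.70 in WT MI hearts. Whether same-numbered arrays share a source of variation in these genes was not tested. With the block Oasl2 and Bst2 passed in WT (adjusted p = 0.0113 and 0.0285), Usp18, Ifi35 and Rtp4 passed in KO (0.0328, 0.0243 and 0.0338), and Rsad2, Ifi35 and Ifih1 passed with the genotypes averaged (0.048, 0.0474 and 0.0258). The averaged call of Slfn9 was lost (0.0545), and the block changed no other call of the 34 genes. Background correction could not be varied, since only processed values were used. Mx1 and Mx2 lay near the low end of the array's values, and detection above background was not tested.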
